A study of Mus musculus with 32 samples.

Results

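Fc gamma receptors bind the constant part of IgG antibodies and let macrophages take up antibody-coated particles and respond to immune complexes. The mouse genes described here are Fcgr1 (the high-affinity receptor FcγRI), Fcgr3 and Fcgr4 (the activating receptors FcγRIII and FcγRIV), Fcgr2b (the inhibitory receptor FcγRIIB) and Fcer1g (the FcR γ chain, the signalling subunit that the activating receptors share). Each is named by a single-gene probe set on the array, and the 5 genes are 5 of the 19938 genes measured. They were chosen by name, not by their values, although earlier results of these data were known.

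The activating receptors signal through the tyrosine motif of the FcR γ chain and the kinase Syk, and the chain is also needed to bring them to the cell surface. FcγRIIB carries an inhibitory motif in its own tail, which recruits the phosphatase SHIP1 and restrains the activating receptors. Macrophages carry activating and inhibitory receptors together, and interferons are known inducers of Fcgr1 in these cells.

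RNA came from 4 mouse macrophage lines on an M-/- background, each with its own form of the CSF-1 receptor (CSF-1R), the receptor for the growth factor of macrophages. Y721F and 3AB lack Tyr-721 of the receptor, whereas WT and 3ABY721 have it. As each line has its own form, 3AB and 3ABY721 also differ from Y721F and WT elsewhere in the receptor, which is not described here. All lines were kept in α-MEM with serum of newborn calves, and CSF-1, human and recombinant, was used at 120 ng/mL. In the steady-state experiment the groups were Y721F, 3AB, 3ABY721 and WT, each grown continuously in CSF-1 or starved of it, with 2 arrays per group. In the time course, starved Y721F and WT cells received CSF-1 for 0, 20, 60 or 180 min, again with 2 arrays per group. The sources do not say whether a line is a single clone or how its receptor was introduced, and receptor form and line cannot be told apart. The 2 arrays of a group, numbered I and II, are called biological replicates by the submitters; where they share cultures, p-values measure only the spread between these arrays.

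The 32 arrays gave log2 signals with medians between 5.97 and 6.22, and Pearson r across genes was 0.986 to 0.996 for the 2 arrays of a group. Csf1r, the CSF-1 receptor gene, read 12.72 to 13.41 and Cd68, a macrophage marker, read 12.58 to 13.27 in all 32 arrays. Other macrophage markers varied more. The widest range among the 9 measured was that of Mertk, 5.43 to 10.26. Markers of other cells that carry Fc receptors ran from low to moderate signals. The highest array read 4.96 for Cd79a (B cells), 4.69 for Ncr1 (NK cells), 4.40 for Fcer1a (mast cells) and 5.14 for Ly6g (neutrophils). The highest members of the same lists reached 6.17 for Cd79b (B cells), 9.52 for Cd2 (NK and T cells), 6.97 for Hdc (mast cells and basophils), and 7.81 for Cxcr2 and 7.61 for S100a8 (neutrophils). Among the dendritic cell markers the highest was Batf3, which reached 7.70. In bulk RNA, fewer cells of a type and less RNA per cell cannot be told apart.

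Fcgr2b, Fcgr4 and Fcgr3 lie next to each other on mouse chromosome 1 with 0 other protein-coding genes between them, and 7 protein-coding genes separate Fcgr3 from Fcer1g (RefSeq annotation, GRCm38.p6). Fcgr1 lies on chromosome 3. RefSeq promoter windows of GRCm38.p6, from 250 bases before to 50 bases after the transcription start, were found for all 5 genes. The windows of Fcgr1, whose signal differed most between lines, of Fcgr2b and of Fcgr4, which did not follow it, are printed 5′ to 3′ on the gene's strand. Capitals mark matches, on either strand, to TTCNNNGAA (the STAT or GAS motif), GAGGAA (a core of the PU.1 motif) and the interferon-stimulated response motif in its GAAA-spacer-GAAA form with 2 free bases between.
Fcgr1, chr3:96293920-96294219, minus strand: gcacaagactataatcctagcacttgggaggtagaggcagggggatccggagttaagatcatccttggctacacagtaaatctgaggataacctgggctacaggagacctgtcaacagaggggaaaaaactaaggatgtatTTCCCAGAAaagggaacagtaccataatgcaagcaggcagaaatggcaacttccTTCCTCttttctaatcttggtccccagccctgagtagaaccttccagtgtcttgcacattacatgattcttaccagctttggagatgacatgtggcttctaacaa
Fcgr2b, chr1:170976022-170976321, minus strand: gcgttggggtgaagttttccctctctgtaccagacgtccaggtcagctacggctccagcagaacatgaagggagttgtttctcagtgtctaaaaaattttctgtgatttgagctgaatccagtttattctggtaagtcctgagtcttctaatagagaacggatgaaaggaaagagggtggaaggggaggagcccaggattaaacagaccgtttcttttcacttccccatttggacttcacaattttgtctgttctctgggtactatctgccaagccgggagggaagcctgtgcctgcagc
Fcgr4, chr1:171018676-171018975, plus strand: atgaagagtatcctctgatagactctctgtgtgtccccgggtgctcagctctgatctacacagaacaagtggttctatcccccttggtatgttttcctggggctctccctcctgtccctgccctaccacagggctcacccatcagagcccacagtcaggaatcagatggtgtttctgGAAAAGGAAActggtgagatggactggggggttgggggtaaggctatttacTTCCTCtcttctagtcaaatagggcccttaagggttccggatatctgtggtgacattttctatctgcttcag
The Fcgr1 window held TTCCCAGAA, a match to the STAT motif that began at position -109 from the start site, and 1 match to the PU.1 core. The Fcgr4 window held GAAAAGGAAA, a match to the interferon-stimulated response motif that began at position -73 from the start site, and 1 match to the PU.1 core. No match was found in these letters for Fcgr2b or Fcer1g, and each of the 2 overlapping Fcgr3 windows held 1 PU.1 core. Of 32851 promoter windows of 300 bases, 8.30% held the STAT motif, 28.3% the PU.1 core and 3.44% the interferon-stimulated response motif. A match is a description of the letters, and none of the motifs overlapped another within these windows.

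Fcgr1 was the member that set the Y721F line apart from the other lines. In cells grown in CSF-1, Fcgr1 read 5.99 and 6.12 on the log2 scale in Y721F, against 11.61 and 10.81 in WT. Both Y721F arrays were therefore far below both WT arrays, and they stood at the level of their own array medians of 6.05 and 6.09. The difference (Y721F minus WT) was -5.16 log2 (SE 0.21, 95% interval -5.59 to -4.72, n = 2 arrays each), a signal 35.6-fold lower in Y721F (limma, adjusted p = 2.05e-09). It ranked 3 of 19938 genes by size. The Y721F signal lay at the array median, above the lower quartiles of the arrays (4.69 to 4.85). No detection call is given, so whether this signal was above background could not be told.

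In starved cells Fcgr1 read 7.27 and 7.58 in Y721F, against 11.79 and 11.82 in WT. The groups did not overlap, and Fcgr1 was 20.8-fold lower in Y721F (difference -4.38, SE 0.21, limma adjusted p = 7.26e-09). This was the change of rank 10 by size. In the time course the 8 Y721F arrays ran from 7.86 through a median of 8.82 to 9.24, against 10.00, 11.04 and 11.73 in the 8 WT arrays. All 8 Y721F arrays again lay below all 8 WT arrays, by a mean of -2.21 over the 4 times (SE 0.34, limma adjusted p = 0.00142), which ranked 69 by size. The 8 arrays of a line are those numbered I and II at each of the 4 times. The fit took them as independent, so this SE and p-value can overstate the precision.

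The starved cells of the steady-state experiment and the 0 min cells of the time course had the same labelled treatment. The estimated Fcgr1 gap was larger in the former, but the difference between the gaps did not pass the test. At 0 min Fcgr1 read 8.22 and 9.22 in Y721F, against 11.73 and 10.60 in WT. The difference of -2.45 (SE 0.67) at this single time did not pass the test (limma adjusted p = 0.167), although the groups did not overlap. It passed with all 32 arrays in 1 fit (SE 0.52, limma adjusted p = 0.0134), but not with the array number (I or II) as a block (limma adjusted p = 0.0758). The gap in steady-state starved cells less that at 0 min was -1.94 (SE 0.74, 95% interval -3.47 to -0.40), a comparison added after the values were seen, and it did not pass the test (limma adjusted p = 0.157).

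**Figure D1:**
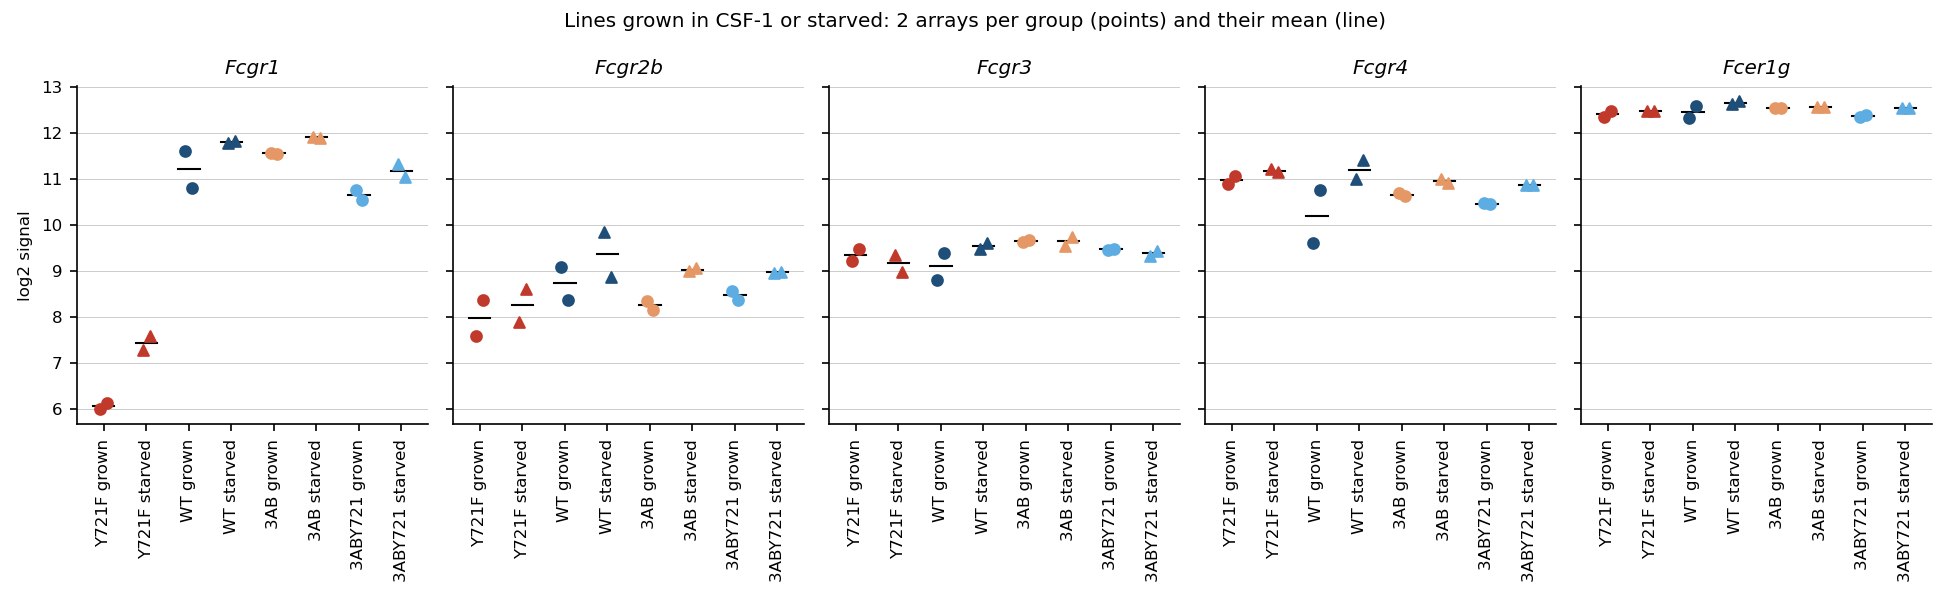
Log2 signal of the 5 genes in the 16 steady-state arrays, by line and by growth in CSF-1 (circles) or starvation (triangles), with the mean of each pair as a line. The 4 Y721F points of Fcgr1 lie between 5.99 and 7.58, below the 12 points of the other lines, which start at 10.55; the 16 points of Fcer1g lie between 12.32 and 12.69.

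The other line without Tyr-721 did not show the low Fcgr1 signal. In 3AB, Fcgr1 read 11.56 and 11.55 grown and 11.92 and 11.90 starved, against 10.76 and 10.55 grown and 11.32 and 11.04 starved in 3ABY721. Each 3AB pair lay above its 3ABY721 pair. The difference (3AB minus 3ABY721) was +0.90 grown (SE 0.21, limma adjusted p = 0.0493), which was called, and +0.73 starved (SE 0.21, adjusted p = 0.186), which was not. Fcgr1 was the 1 of 5 members called grown, where 1.18% of all genes were called, and 0 of 5 were called starved, where 0.617% were. The grown call lay at the threshold: it was lost without any 1 of the 4 arrays (adjusted p 0.174 to 0.428), after quantile normalization (0.0524) and with all 32 arrays in 1 fit (0.562).

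The 2 gaps were set against each other in a comparison added after the values were seen. The Y721F minus WT gap less the 3AB minus 3ABY721 gap of Fcgr1 was -6.06 grown (SE 0.29, 95% interval -6.68 to -5.43, limma adjusted p = 2.66e-08) and -5.11 starved (SE 0.29, 95% interval -5.73 to -4.49, adjusted p = 1.04e-07). Over all genes, 7.99% (grown) and 10.2% (starved) were called in these comparisons. Of the members, Fcgr1 was the 1 of 5 called in each. For Fcgr2b the same quantity in starved cells was -1.17 (SE 0.46, adjusted p = 0.117), and for Fcgr3 it was -0.64 (SE 0.26, adjusted p = 0.131). The starved value of Fcgr2b was called without WT starved array II (-1.66, adjusted p = 0.0383) and was -0.69 without WT starved array I (adjusted p = 0.349). The grown value of Fcgr4, +0.59 (adjusted p = 0.348), was +1.18 and called without WT grown array II (adjusted p = 0.00459), and 0.005 without WT grown array I (adjusted p = 0.992).

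Set directly against Y721F, the 3AB line had a 45.3-fold higher Fcgr1 signal grown (+5.50, SE 0.21, limma adjusted p = 8.00e-10) and a 22.4-fold higher signal starved (+4.49, SE 0.21, adjusted p = 4.64e-09). Fcgr1 was the 1 of 5 members called in each, where 7.87% and 7.61% of all genes were called; these comparisons use the same Y721F arrays as those with WT. Between the lines that have Tyr-721, Fcgr1 in 3ABY721 less WT was -0.56 grown (SE 0.21, adjusted p = 0.296) and -0.63 starved (SE 0.21, adjusted p = 0.134), and 0 of 5 members were called in either (0.256% and 1.81% of all genes were). The grown values moved with the WT array left out. Without WT grown array II, Fcgr1 was called at -0.96 (adjusted p = 0.00947), and without WT grown array I it was -0.16 (adjusted p = 0.923). Fcgr4 in 3ABY721 less WT grown was +0.28 (adjusted p = 0.724), +0.87 and called without WT grown array II (adjusted p = 0.0157), and -0.31 and not called without WT grown array I.

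Of the 5 members, 1 was called in Y721F against WT grown and 2 starved, where 7.88% and 11.1% of all genes were called, and 2 over the 4 times, where 3.93% of all genes were. The second was Fcgr2b, the inhibitory receptor gene. In starved cells Fcgr2b read 7.89 and 8.60 in Y721F, against 9.84 and 8.87 in WT. Both Y721F arrays lay below both WT arrays, and the distance between the nearest arrays was smaller than the spread within either pair. The difference was -1.11 (SE 0.32, 95% interval -1.80 to -0.42, limma adjusted p = 0.0305), a 2.16-fold lower signal. The call was lost after quantile normalization (-0.85, adjusted p = 0.118), without WT starved array I (-0.63, adjusted p = 0.248) and without Y721F starved array I (-0.76, adjusted p = 0.212).

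In the time course the Fcgr2b arrays of Y721F ran from 8.94 through a median of 9.47 to 10.13, against 9.77, 10.09 and 10.74 in WT. The ranges overlapped, unlike those of Fcgr1. As for Fcgr1, the fit over the 4 times took the arrays of a line as independent, so its SE and p-value can overstate the precision. Over the 4 times Fcgr2b was 1.65-fold lower in Y721F (-0.72, SE 0.19, limma adjusted p = 0.0312), a call that 8 of the 16 arrays carried: without any 1 of these the adjusted p lay between 0.0676 and 0.0818. In grown cells Fcgr2b read 7.59 and 8.37 in Y721F, against 9.09 and 8.36 in WT, with overlapping groups and a difference of -0.75 (SE 0.32) that did not pass (adjusted p = 0.167). In 3AB it read 8.35 and 8.14 grown and 9.0 and 9.05 starved, against 8.57 and 8.37 grown and 8.96 and 8.97 starved in 3ABY721. The 3AB minus 3ABY721 difference was -0.23 grown (95% interval -0.92 to 0.47) and +0.06 starved (95% interval -0.63 to 0.75).

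The genes of the other activating receptors and of the γ chain were not called between any of the lines compared with all arrays in the fit. Fcgr3 read 9.21 and 9.48 in Y721F grown and 9.35 and 8.97 starved, against 8.80 and 9.39 in WT grown and 9.48 and 9.61 starved. The grown groups overlapped, and the starved Y721F arrays lay just below the starved WT arrays. The Y721F minus WT difference of Fcgr3 was +0.25 grown (95% interval -0.14 to 0.64) and -0.39 starved (95% interval -0.78 to 0.01). Over the 4 times it was -0.22 (SE 0.10, limma adjusted p = 0.209).

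Fcgr4 read 10.88 and 11.06 in Y721F grown and 11.21 and 11.15 starved, against 9.60 and 10.77 in WT grown and 10.99 and 11.41 starved. In grown cells both Y721F arrays lay above both WT arrays, the opposite side to Fcgr1. The difference of +0.79 (SE 0.26) did not pass (limma adjusted p = 0.0698), and it rests on a WT pair whose arrays differ by more than the gap: it was +1.37 and called without WT grown array II (adjusted p = 0.0002), and +0.20 without WT grown array I (adjusted p = 0.625). In starved cells the difference of Fcgr4 was -0.02 (95% interval -0.57 to 0.53).

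Fcer1g had the smallest spread of the members. It read 12.35 and 12.48 in Y721F grown and 12.47 and 12.47 starved, against 12.32 and 12.59 in WT grown and 12.64 and 12.69 starved. The Y721F minus WT difference was -0.04 grown (95% interval -0.30 to 0.22), -0.20 starved (95% interval -0.46 to 0.07) and -0.01 over the 4 times (95% interval -0.13 to 0.11). The signal of the shared γ chain gene therefore differed by at most 0.46 log2 at the edge of these intervals.

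**Figure D2:**
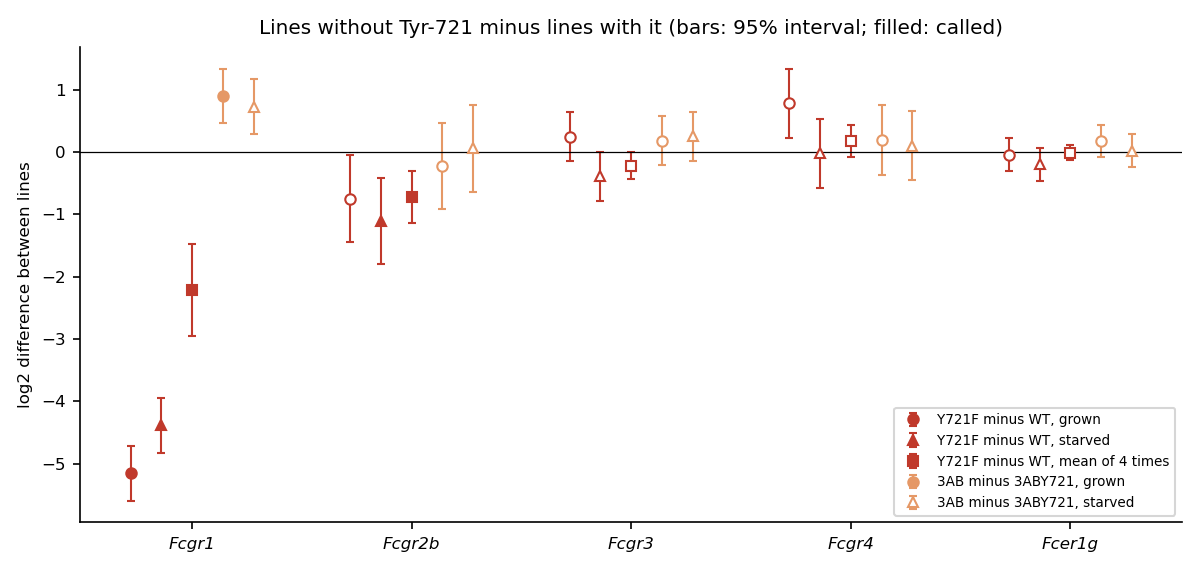
Log2 difference of each gene between a line without Tyr-721 and a line with it, as the fitted value with its 95% interval; filled symbols passed the test (adjusted p under 0.05 and a fold above 1.5). The Fcgr1 differences of Y721F minus WT lie at -5.16, -4.38 and -2.21, while those of 3AB minus 3ABY721 lie at +0.90 and +0.73.

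Growth in CSF-1 went with a lower Fcgr1 signal than starvation. Over the 4 lines, Fcgr1 was 1.64-fold lower in grown than in starved cells (-0.71, SE 0.10, limma adjusted p = 0.00022). Both grown arrays lay below both starved arrays in each of the 4 lines. This was the 1 of 5 members called, where 4.21% of all genes were, and the call was lost with all 32 arrays in 1 fit (adjusted p = 0.0583). Within lines the difference of Fcgr1 was -1.37 in Y721F (SE 0.21, adjusted p = 0.00145), which was called, and -0.60 in WT, -0.53 in 3ABY721 and -0.36 in 3AB (adjusted p 0.107, 0.293 and 0.520), which were not. The call in Y721F was lost with all 32 arrays in 1 fit (adjusted p = 0.127), and its grown arrays stood at their array medians. The WT value was -0.99 and called without WT grown array I (adjusted p = 0.0105), and -0.20 without WT grown array II (adjusted p = 0.612).

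Whether the growth effect on Fcgr1 differed between Y721F and WT was tested as its own contrast: the difference of -0.78 (SE 0.29, 95% interval -1.40 to -0.15) did not pass (limma adjusted p = 0.317). It was -1.18 and called without WT grown array II (adjusted p = 0.0228), and -0.38 and not called without WT grown array I. For Fcgr4 the difference was +0.81 (adjusted p = 0.382), +1.39 and called without WT grown array II (adjusted p = 0.0101), and +0.22 without WT grown array I (adjusted p = 0.774). None of the 5 members was called in this contrast or in that of 3AB against 3ABY721, where 0.0903% and 0.00502% of all genes were called.

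Fcgr2b and Fcgr4 differed with growth below the fold threshold. Fcgr2b differed by -0.54 in grown less starved cells over the 4 lines (SE 0.16, limma adjusted p = 0.0273), a signal smaller by 1.46-fold, and it was called after quantile normalization (-0.63, adjusted p = 0.0162) and when 1 of 4 arrays was left out (WT starved II, Y721F starved I, WT grown I or Y721F grown II; adjusted p 0.00681 to 0.0152). Both grown arrays lay below both starved arrays of Fcgr2b in 3AB and 3ABY721, and the groups overlapped in Y721F and WT. Within all 8 pairs of the same line and array number, Fcgr2b was lower grown than starved. Fcgr4 differed by -0.48 (SE 0.13, adjusted p = 0.0161), a signal smaller by 1.39-fold, and it was called without WT grown array II (-0.63, adjusted p = 5.86e-05), with the grown arrays below the starved arrays in all 4 lines.

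Within WT, Fcgr4 was called: it read 9.60 and 10.77 grown, against 10.99 and 11.41 starved (-1.02, SE 0.26, limma adjusted p = 0.0333), and 5.32% of all genes were called there. Fcgr4 was the 1 of 5 members called in WT, and Fcgr1 the 1 of 5 in Y721F, where 4.94% of all genes were called; 0 of 5 were called in 3ABY721 (1.41% of all genes) and in 3AB (0.687%). With the array number as a block, Fcgr2b was also called in 3AB (-0.78, adjusted p = 0.0269), 1 of 5 members where 1.11% of all genes were called, and in WT (-0.63, adjusted p = 0.02), 2 of 5 where 6.69% were. The WT call of Fcgr4 rests on single arrays: without WT grown array I the difference was -0.43 (adjusted p = 0.287), and it also missed the threshold without either starved array (adjusted p 0.0635 and 0.194). In the other lines the Fcgr4 difference was -0.21 in Y721F, -0.40 in 3ABY721 and -0.30 in 3AB. Fcgr3 differed by -0.04 over the 4 lines (95% interval -0.24 to 0.15), and Fcer1g by -0.11 (95% interval -0.24 to 0.02). Within WT, Fcgr3 differed by -0.45 (adjusted p = 0.179), by -0.75 and called without WT grown array II (adjusted p = 0.0192), and by -0.16 without WT grown array I (adjusted p = 0.799).

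CSF-1 given to starved cells changed none of the 5 genes past the test within 180 min. The count was 0 of 5 at 20, 60 and 180 min in Y721F, where 0.0802%, 0.176% and 0.261% of all genes were called (0.246%, 0.853% and 5.39% with the series number as a block), and 0 of 5 in WT, where 0.16%, 0.632% and 2.16% were called (0.431%, 3.74% and 7.81% with the block). At 0 min 0 of 5 members were called between the lines, where 0.727% of all genes were called (2.01% with the block). In Y721F, Fcgr1 differed from 0 min by -0.48, +0.21 and +0.29 at 20, 60 and 180 min (SE 0.67). In WT it differed by -0.28, -0.43 and -0.23 (SE 0.67). With the series number as a block the SE of Fcgr1 was 0.21 in both lines, and its lowest adjusted p was 0.255 (limma, WT at 60 min).

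The 2 numbered series of WT stood apart over the whole time course. In Y721F, Fcgr1 read 8.22, 7.86, 8.98 and 8.78 in series I, and 9.22, 8.62, 8.87 and 9.24 in series II. In WT it read 11.73, 11.71, 11.48 and 11.70 in series I, and 10.60, 10.07, 10.00 and 10.17 in series II. WT series I was higher than series II at every time, whereas Y721F series I was lower than series II at 0, 20 and 180 min. With the series number as a block the calls of the 5 members in the time course did not change. In comparisons between lines this block was shared by both lines, so it cannot take up series differences of opposite direction.

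The largest mean change of a member in the time course was that of Fcgr2b in Y721F, -0.65 at 20 min and -0.62 at 180 min (SE 0.38), and it came from 1 series. With the series number as a block its SE was 0.21 (limma adjusted p = 0.321 at 20 min and 0.0859 at 180 min). Fcgr2b read 10.13, 9.03, 9.41 and 8.94 in series I of Y721F, and 9.57, 9.38, 9.78 and 9.53 in series II. In WT it read 10.74, 10.57, 10.35 and 10.61 in series I, and 9.83, 9.83, 9.77 and 9.84 in series II. Series I of Y721F lay lower at each later time than at 0 min, while series II stayed within 0.21 of its own 0 min value.

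Fcgr3, Fcgr4 and Fcer1g had narrow ranges in the time course. Fcgr3 read 10.04 to 10.72 in Y721F, against 10.45 to 10.94 in WT, Fcgr4 read 10.79 to 11.61 in Y721F, against 10.60 to 11.22 in WT, and Fcer1g read 12.80 to 12.99 in Y721F, against 12.71 to 13.01 in WT. Fcgr4 at 180 min was +0.32 and +0.14 above its 0 min value in the 2 series of Y721F, and +0.17 and +0.28 above it in those of WT. The differences between the Y721F and the WT response passed for 0 of 5 members and 0 of all 19938 genes at each time (limma), also where 144, 139 and 72 genes had an unadjusted p under 0.05 with a fold above 1.5; 0 members were among these.

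**Figure D3:**
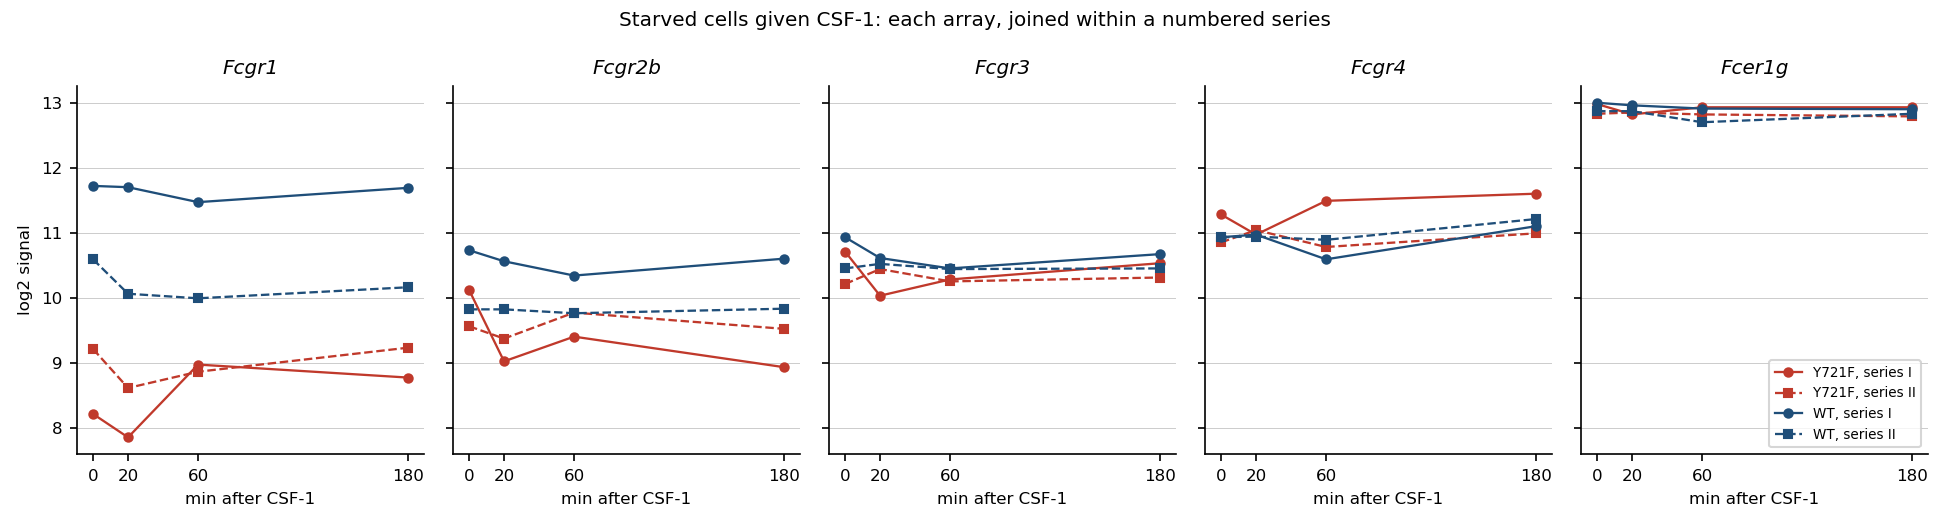
Log2 signal of the 5 genes in the 16 time-course arrays against minutes after CSF-1, with the arrays of a numbered series joined. For Fcgr1 all Y721F points (7.86 to 9.24) lie below all WT points (10.00 to 11.73), and the WT series I runs above series II; the Fcer1g points lie between 12.71 and 13.01 in both lines.

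The order of the groups by Fcgr1 level placed both Y721F groups last in the steady state and all 4 last in the time course. Among the 8 steady-state groups Fcgr1 had its highest mean in 3AB starved (11.91), followed by WT starved (11.80), 3AB grown (11.56), WT grown (11.21), 3ABY721 starved (11.18), 3ABY721 grown (10.66), Y721F starved (7.43) and Y721F grown (6.06). Arrays of neighbours in this order overlapped in 2 of 7 cases, WT grown with 3AB grown and with 3ABY721 starved. Among the 8 time-course groups Fcgr1 neighbours overlapped in 6 of 7 cases, and the 1 gap fell between the lowest WT group (60 min) and the highest Y721F group (180 min).

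The other members had less separated orders. Fcgr2b had its highest steady-state mean in WT starved (9.36) and its lowest in Y721F grown (7.98), with overlap in 5 of 7 neighbours, and 7 of 7 overlapped in the time course. Fcgr3 ran from 9.65 in 3AB grown to 9.10 in WT grown, with overlap in 6 of 7 neighbours in each experiment. Fcgr4 ran from 11.20 in WT starved to 10.18 in WT grown, with overlap in 3 of 7, and in 5 of 7 in the time course. Fcer1g ran from 12.66 in WT starved to 12.37 in 3ABY721 grown, with overlap in 4 of 7, and in 7 of 7 in the time course. In the time course the highest and lowest means were those of WT 0 min (10.29) and Y721F 20 min (9.21) for Fcgr2b, of WT 0 min (10.70) and Y721F 20 min (10.25) for Fcgr3, of Y721F 180 min (11.30) and WT 60 min (10.75) for Fcgr4, and of WT 0 min (12.95) and WT 60 min (12.82) for Fcer1g.

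How far the members moved together was described by Pearson r over the 16 group means, each centred on its experiment, which share lines and arrays. Fcgr1 and Fcgr2b had r = 0.77, the highest of the 10 pairs, and Fcgr1 and Fcgr4 had r = -0.35, the lowest. Fcgr2b and Fcgr4, neighbours on chromosome 1, had r = -0.05, and Fcgr4 and Fcgr3, the next neighbours, had r = 0.12.

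The genes whose group means followed Fcgr1 most closely were Tlr7 (r = 0.988), a receptor for single-stranded RNA, Trim30a (r = 0.984) and Slfn8 (r = 0.982). Tlr7 differed in Y721F less WT by -3.66 grown (SE 0.18), -3.09 starved (SE 0.18) and -1.32 over the 4 times (SE 0.14), and by +0.22 in 3AB less 3ABY721 grown. Trim30a differed by -1.84, -1.90 and -1.05 in Y721F less WT, and by +0.16 in 3AB less 3ABY721 grown. Slfn8 differed by -2.20, -2.42 and -1.11 in Y721F less WT, and by +0.66 in 3AB less 3ABY721 grown. Since these genes were picked for their likeness to Fcgr1, these values are a description.

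For Fcgr2b the closest genes were Ms4a8a (r = 0.965), Esyt1 and Adgre4 (r = 0.940 each). Adgre4, an adhesion receptor of myeloid cells, differed by -2.50 in Y721F less WT grown, -3.13 starved and -2.62 over the 4 times, and by -1.48 in grown less starved cells over the 4 lines. For Fcgr3 they were Cd200r1 (r = 0.878), an inhibitory receptor of myeloid cells, Tmem256 (r = 0.877) and Snx24 (r = 0.875). For Fcgr4 they were Arhgap25 (r = 0.875), Gpnmb (r = 0.854) and Krt7 (r = 0.840), and for Fcer1g they were Tmem106a (r = 0.927), Zeb2 (r = 0.894), a transcription factor of macrophages and other cells, and Vkorc1 (r = 0.888).

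**Figure D4:**
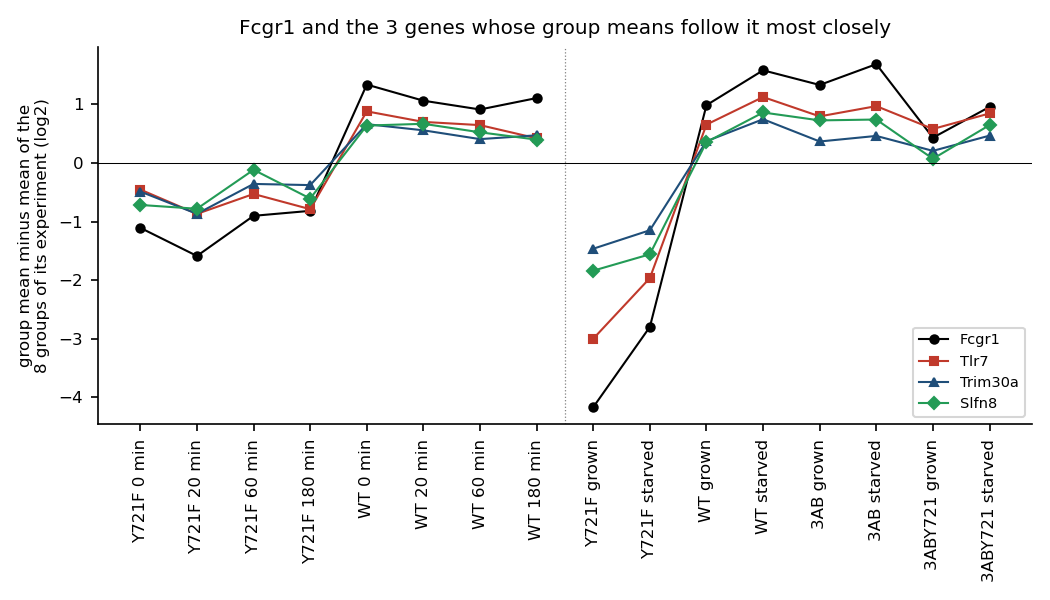
Group means of Fcgr1 and of the 3 genes of most similar pattern, in log2 units relative to the mean of the 8 groups of the same experiment, time course left of the dotted line and steady state right of it. All 4 genes lie below 0 in every Y721F group and above 0 in the other groups; Fcgr1 spans the widest range.

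Most genes that carry the receptors' signal were not called between Y721F and WT. Of 25 measured genes of Fc gamma receptor signalling and the phagocytic cup, 1 was lower in Y721F grown and 4 were lower starved, and 0 were higher in either. Background shares were 4.94% (grown) and 7.66% (starved) of all genes lower. Cbl, a ubiquitin ligase that ends receptor signalling, was lower grown (-0.88, SE 0.14, limma adjusted p = 0.000859) and starved (-1.02, SE 0.14, adjusted p = 0.000203). Fgr, a Src-family kinase of myeloid cells, was lower starved (-1.62, SE 0.26, adjusted p = 0.000868) and over the 4 times (-2.58, SE 0.19, adjusted p = 8.55e-06), and Dock2 was lower starved (-0.70, adjusted p = 0.00251). Syk, the kinase the γ chain recruits, differed by -0.30 grown and -0.31 starved (adjusted p 0.233 and 0.170). The median of the list was -0.23 grown and -0.31 starved, against 0.05 and -0.01 over all genes.

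Of 16 inhibitory receptors and phosphatases, the group to which FcγRIIB belongs by function, 5 were lower in Y721F grown and 6 starved, and 0 were higher. Pilra, an inhibitory receptor of myeloid cells, was lower grown (-3.15, SE 0.34, limma adjusted p = 3.50e-05) and starved (-2.68, SE 0.34, adjusted p = 0.000148). Clec4a2 (-2.17, SE 0.23, adjusted p = 3.19e-05) and the adaptor Dok2 (-1.34, SE 0.17, adjusted p = 0.000154) were lower grown, and Cd33 (-1.56, SE 0.37, adjusted p = 0.0116) and Cd300lf (-1.26, SE 0.22, adjusted p = 0.0017) starved. Inpp5d, which encodes the phosphatase SHIP1, differed by -0.63 grown (SE 0.16, adjusted p = 0.0262), which was called, and by -0.30 starved (adjusted p = 0.230). The list's median was -0.29 grown and -0.41 starved.

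Of 11 other receptors that signal through the FcR γ chain or its relative DAP12, 6 were lower in Y721F grown, 1 starved and 4 over the 4 times (2.37% of all genes were lower there), with 0 higher. Trem1 was lower grown (-3.33, SE 0.73, limma adjusted p = 0.00997) and over the 4 times (-2.47, SE 0.47, adjusted p = 0.00517), and differed by -0.64 starved (adjusted p = 0.584). Clec4n, which encodes Dectin-2, was lower grown (-2.52, SE 0.32, adjusted p = 0.000154) and, unlike Fcgr1, was also lower in 3AB against 3ABY721, by -3.10 grown (SE 0.32, adjusted p = 0.000137) and -2.09 starved (SE 0.32, adjusted p = 0.00563). Cd300ld was lower grown (-1.85, SE 0.21, adjusted p = 6.13e-05) and starved (-2.15, SE 0.21, adjusted p = 1.32e-05). Tyrobp, which encodes DAP12, differed by +0.11 grown and -0.22 starved (adjusted p 0.696 and 0.289), so neither shared chain gene was called. The list's median was -0.93 grown and -0.43 starved.

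Of 14 known regulators of Fc gamma receptor genes, 4 were lower in Y721F grown and 4 starved, with 0 higher. Irf8, an interferon regulatory factor of macrophages, was lower grown (-2.10, SE 0.22, limma adjusted p = 2.59e-05), starved (-1.66, SE 0.22, adjusted p = 0.000206) and over the 4 times (-1.03, SE 0.16, adjusted p = 0.00141). C5ar1, the receptor for complement fragment C5a, was lower grown (-2.19, SE 0.28, adjusted p = 0.000153) and starved (-1.06, SE 0.28, adjusted p = 0.0181), and Il4ra was lower grown (-1.08, adjusted p = 0.0217). Spi1, which encodes PU.1, differed by +0.11 grown and -0.10 starved (adjusted p 0.601 and 0.598). In 3AB against 3ABY721 grown 1 of the 14 was called, Il10ra, which was higher (+0.97, SE 0.20, adjusted p = 0.0242). Of 13 other antibody receptors, including those for IgE and IgM, 0 were called grown and 2 starved (Fcrl1 higher by 1.02 and Trim21 lower, at -0.77). The shares of all genes called were 7.88% grown and 11.1% starved. Of these 13 receptors, 7 had a mean signal above the 20th percentile of genes and 2 a mean above that of the median gene. The list's median was 0.09 grown and 0.06 starved, and that of the regulators -0.39 grown and -0.40 starved.

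Some macrophage markers were also lower in Y721F than in WT, the direction of Fcgr1, while others were not called. Of 9 measured markers, 4 were lower in Y721F grown, 4 starved and 4 over the 4 times, among them Mertk (-2.78 grown, -1.75 starved). Of all genes, 4.94% were lower grown, 7.66% starved and 2.37% over the 4 times. Their mean level per array was 10.65 to 10.70 in Y721F, against 11.57 to 11.75 in WT when grown, and 11.40 to 11.60 in Y721F, against 12.01 to 12.27 in WT when starved. Csf1r itself differed by -0.57 grown (SE 0.12, limma adjusted p = 0.0067), under the fold threshold, and by -0.24 starved (adjusted p = 0.173), and Cd68 by -0.03 grown and -0.22 starved. Among markers of other cells, Cd2 was lower (-1.43 grown, -2.21 starved), Pdgfra was higher (+2.04 grown, +1.50 starved) and Gata2 was higher starved (+0.66), while over the 4 times Cd2 (-1.07) and S100a8 (-0.70) were lower and Pdgfra (+1.40) was higher; the mean level of the 6 lists of other cells lay between 4.71 and 6.42 in all arrays. The part of these differences in the Fcgr1 result was not tested.

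Grown against starved, over the 4 lines, the pathway genes moved both ways. Of the 25 signalling genes, 2 were higher and 2 lower: Pla2g4a, a phospholipase, was higher by 1.13 (SE 0.10, limma adjusted p = 4.33e-06), Lat2 was higher by 0.92, Fgr was lower (-0.86), and Syk was lower (-0.63, SE 0.08, adjusted p = 4.84e-05). Of the 16 inhibitory genes, 2 were higher and 4 lower, led by Clec4a2 (-1.10), Pirb (-0.85) and Cd300a (-0.73). Of the 11 coupled receptors, Trem1 was higher (+1.59), and Clec4n (-0.94) and Cd300ld (-0.85) were lower. Of the 14 regulators, 5 were lower, the largest being Il10ra (-1.24, SE 0.10, adjusted p = 1.36e-06), Irf8 (-0.93) and Cebpa (-0.86). The background was 2.58% of all genes higher and 1.64% lower, and 4 of the 9 macrophage markers were lower as well.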

How the data were processed

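The 32 arrays are Affymetrix Mouse Gene 1.0 ST. The authors deposited log2 signals for 35556 probe sets; no source names the log base, which was taken from the range of the values, and how they were background-corrected and normalized, and on which build, is not stated there. Genes were taken from the platform annotation of the probe sets: 21789 name 1 gene, 1621 name several and were left out, and 12146 have no entry. For each gene the probe set with the highest mean over the 32 arrays was kept, leaving 19938 genes; each Fc gamma receptor gene has 1 probe set.

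Each experiment (8 groups) had its own fit in limma 3.58.1 under R 4.3.3, by lmFit and eBayes, on 8 residual degrees of freedom, to which the prior added 3.48 in the time course and 6.33 in the steady state. P-values were adjusted by Benjamini-Hochberg over 19938 genes within each of 26 comparisons, and 3 comparisons were added after the values were seen. A gene was called, and described as higher or lower, at an adjusted p under 0.05 with a fold above 1.5, as the submitters' design text gives for the fold. The fit was tested on simulated data.

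The members and gene lists were chosen with earlier results of these data known. Named genes are the members, Csf1r and the 3 genes most like each member among genes above the 20th percentile of signal. Up to 3 called genes of each list with the largest change were also named. Cd68, Cd79a, Cd79b, Ncr1, Fcer1a, Hdc, Ly6g, Cxcr2, Batf3, Syk, Inpp5d, Tyrobp and Spi1 were named after their values were seen. Some genes of the lists are not reported here.

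Arrays with the same number deviated together within a line of the time course: deviations from group means, correlated across genes, gave r of 0.353 to 0.648 over 6 Y721F pairs and 0.487 to 0.734 over 6 WT pairs. Blocked values are therefore given there.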

Additional observations from a re-analysis of the deposited data

Results flagged for a closer look

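The gap in Fcgr1 between a line without Tyr-721 and a line with it differed between the 2 pairs of lines, by a test of the difference itself that was added after the values were seen. In grown cells the Y721F minus WT gap less the 3AB minus 3ABY721 gap was -6.06 (SE 0.29, limma adjusted p = 2.66e-08), with both Y721F arrays below both WT arrays and both 3AB arrays above both 3ABY721 arrays. It lay between -6.46 and -5.66 when each array was left out in turn.

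In starved cells the same quantity was -5.11 (SE 0.29, limma adjusted p = 1.04e-07), and -5.27 to -4.96 when each array was left out in turn, with the arrays of each pair on the same sides as in grown cells.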

How the results depend on the processing

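Of the member values, 11 were called and 119 were not. Under the alternatives run (quantile normalization, low-signal genes left out, the mean of all probe sets, an intensity trend, all 32 arrays in 1 fit, the replicate block, an unadjusted p, and each array left out) 134 of their 157 alternative values were still called and 0 changed sign; of the values not called, 6 changed sign without an array being left out, all at most 0.19 in size, and 55, at most 0.63 in size, with 1 array left out. The 3 calls of Fcgr1 between Y721F and WT and both against 3AB were kept in all of these. Not every alternative could change a result. An unadjusted p cannot lose a call made at an adjusted p. Only quantile normalization or leaving an array out could change the value of a member, and so its sign. The other alternatives could change only its SE and p-values.

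The count of members called changed as follows. With all 32 arrays in 1 fit it was 1 at 0 min (Y721F against WT), and 0 for Y721F grown against starved, for the 4 lines grown against starved, and for 3AB against 3ABY721 grown. After quantile normalization it was 2 for the 4 lines grown against starved, 1 for Y721F against WT starved and 0 for 3AB against 3ABY721 grown; it was also 0 there with the mean of all probe sets. With an unadjusted p (shares of all genes called so in brackets) it was 1 for Y721F against WT at 0 min (3.53%), 3AB grown against starved (3.1%), 3AB against 3ABY721 starved (2.33%) and 3ABY721 against WT starved (3.95%), 2 for WT grown against starved (8.29%) and 3AB against Y721F starved (9.21%), and 3 for Y721F against WT grown (10.2%) and the growth effect of Y721F against WT (7.81%). With 1 array left out it was 0 to 2 for WT grown against starved, 3ABY721 against WT grown and the growth effect of Y721F against WT, 1 to 2 for the 4 lines grown against starved and for Y721F against WT grown, starved and over the 4 times, and 0 for 3AB against 3ABY721 grown.

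In the steady state same-numbered arrays did not all deviate together: r exceeded 0.1 in 3 of 24 pairs between lines, and within lines it was 0.120 in Y721F, 0.042 in 3AB, 0.280 in 3ABY721 and 0.255 in WT. Whether the numbers pair grown with starved arrays is therefore not settled. With the replicate block Fcgr2b was called in 3AB grown against starved (adjusted p = 0.0269; 1 member, 1.11% of all genes) and in WT grown against starved (adjusted p = 0.02; 2 members, 6.69% of all genes); no other member call changed with the block. The count over all genes moved by more than 1.5 times in 12 of 26 comparisons with the block (WT at 180 min, 1557 against 431) and in 13 with all 32 arrays in 1 fit (Y721F at 180 min, 359 against 52). The cause of these changes was not tested. The number of arrays, 2 per group, limits the precision, and no detection call is given for signals near the array median (Fcgr1 in Y721F grown).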
